A study of Mus musculus with 12 samples.

Results

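A set of 10 genes of prostaglandin and leukotriene synthesis and sensing were followed across the conditions of an array study of mouse dendritic cells. They were taken by symbol from the probe set annotation: the cyclooxygenase genes Ptgs1 and Ptgs2, the prostaglandin synthase genes Ptges and Ptgis, the lipoxygenase pathway genes Alox5, Alox5ap, Alox15 and Ltc4s, and the prostaglandin E2 receptor genes Ptger3 and Ptger4. Of these 10 genes, 9 had a probe set annotated to that gene alone (14 probe sets of 45101), among 18193 genes with such a probe set. Ptgs1 was not analysed here. All 9 genes passed the filter on low values and entered a fit of 12429 genes, but Ptgs2 passed only through its 6 arrays with LPS, and Ptger3 only through 2 arrays of 1 condition. Ptgis and Alox15 passed only through their arrays without LPS, since too few of their arrays with LPS exceeded the array median. For these genes a difference was therefore built into passing, and counts over the members are given as a description.

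Eicosanoids are short-lived lipid signals made from arachidonic acid. The cyclooxygenases turn that fatty acid into a common precursor, from which Ptges makes prostaglandin E2 and Ptgis makes prostacyclin. In the other branch Alox5, helped by the membrane protein encoded by Alox5ap, makes leukotriene A4, and Ltc4s joins it to glutathione to give leukotriene C4. Alox15 adds oxygen at other positions of the same fatty acid and is known in mouse from resident macrophages and eosinophils. In dendritic cells prostaglandin E2 acts through receptors that include Ptger3 and Ptger4 and is known to bear on migration and cytokine output.

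Dendritic cells had been grown from the marrow of BALB/c or BL6 mice aged 6 to 8 weeks, in GM-CSF (20 ng/ml) over 10 days. They received either no retinoid (control), all-trans-retinoic acid (RA, labelled 10 nmol) or Ro41-5253 (Ro, labelled 100 nmol), an antagonist of the alpha form of the retinoic acid receptor, each without LPS or with LPS at 1 ug/ml, and GM-CSF was common to all groups. LPS is a bacterial cell wall component that Toll-like receptor 4 senses. Each of the 6 conditions had 1 culture per strain, hence 2 arrays, and the labels do not say whether cultures of 1 strain came from separate animals. The p-values therefore measure the spread between these arrays, which may be technical, and the small number of arrays limits their precision. Array medians ran from 21.4 to 41.8, and a group with a mean signal under the highest of these medians is called background below. Of 10 dendritic cell markers, H2-Ab1, Cd74, Itgax, Ciita, Batf3, Irf4 and Ccr7 were above background on all 12 arrays. Zbtb46 was above it on 11 arrays, and Flt3 and Cd209a on 6 each. All 10 macrophage markers were above background on at least 2 arrays. Their summed signal in control cultures without LPS was 41408 (BALB/c) and 45170 (BL6), beside 37949 and 35921 for the dendritic cell markers. Of 10 mast cell and basophil markers 5 were above background on at least 2 arrays (Cpa3, Mcpt8, Kit, Gata2 and Hdc), and of 5 eosinophil markers 2 (Prg2 and Siglecf), while Tpsb2, Tpsab1, Fcer1a, Cma1, Ccr3 and Il5ra were at background on all 12. Cpa3 (1624), Mcpt8 (563) and Prg2 (1427) were highest on the BL6 array with Ro and without LPS, but Siglecf (1391) and Gata2 (331) were highest on the BALB/c RA array and Hdc (1560) on the BALB/c array with LPS and no retinoid.

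Promoter windows are shown for genes called in the same direction in some of the results that follow. Ptgs2 and Ptges rose with LPS. Alox5 and Ltc4s were lower with LPS on average, and higher with Ro and LPS than with LPS alone. In Ro cultures Ltc4s, unlike Alox5, was not called with LPS. Each line gives the 250 bases upstream of the RefSeq start in GRCm38.p6, 5′ to 3′ on the gene's strand, and the promoter table held 7 of the 10 genes. Capitals mark matches to GGGCGG (GC box) and TTGCNNAA (C/EBP-like), searched on both strands.
Ptgs2 (chr1:150099781-150100030, plus strand): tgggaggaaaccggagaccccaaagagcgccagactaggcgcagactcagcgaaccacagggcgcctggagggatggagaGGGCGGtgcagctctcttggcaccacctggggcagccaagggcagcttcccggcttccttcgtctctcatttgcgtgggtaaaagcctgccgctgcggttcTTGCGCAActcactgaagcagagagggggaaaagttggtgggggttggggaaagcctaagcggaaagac
Ptges (chr2:30903298-30903547, minus strand): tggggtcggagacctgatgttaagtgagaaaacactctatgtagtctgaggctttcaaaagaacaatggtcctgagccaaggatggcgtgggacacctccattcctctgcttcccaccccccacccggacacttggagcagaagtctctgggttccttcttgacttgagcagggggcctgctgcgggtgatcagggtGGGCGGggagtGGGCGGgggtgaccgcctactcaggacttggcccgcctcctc
Alox5 (chr6:116461179-116461428, minus strand): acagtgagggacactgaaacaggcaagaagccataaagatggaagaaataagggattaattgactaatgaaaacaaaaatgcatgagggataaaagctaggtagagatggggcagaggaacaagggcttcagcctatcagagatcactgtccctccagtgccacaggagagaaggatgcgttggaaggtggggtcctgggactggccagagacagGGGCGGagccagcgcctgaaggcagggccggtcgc
Ltc4s (chr11:50238533-50238782, minus strand): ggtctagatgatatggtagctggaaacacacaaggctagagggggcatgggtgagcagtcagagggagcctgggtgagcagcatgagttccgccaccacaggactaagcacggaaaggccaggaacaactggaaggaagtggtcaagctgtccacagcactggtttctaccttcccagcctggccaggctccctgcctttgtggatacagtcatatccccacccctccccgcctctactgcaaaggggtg

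In these windows the Ptgs2 promoter held the C/EBP-like letters at bases 69 to 62 before the start, a palindrome that matched on both strands, and 1 GC box. The Ptges promoter held 2 GC boxes, Alox5 held 1 and Ltc4s none. Over all 32851 promoters of the table, 9.56% held the C/EBP-like letters and 32.7% a GC box. TATAAA (12.4% of promoters), CACGTG (6.02%), TGACG (17.8%), the kappaB consensus (3.90%) and the DR5 retinoic acid element (0.0883%) were searched as well and had no match in any of the 4 windows. Each window ends at the RefSeq start used, and bases downstream of that start or further upstream than the window were not searched. The lack of a match holds for these windows only and does not show that a gene lacks the element near another start. A letter match is a description of the sequence and not evidence of a site.

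**Figure D1:**
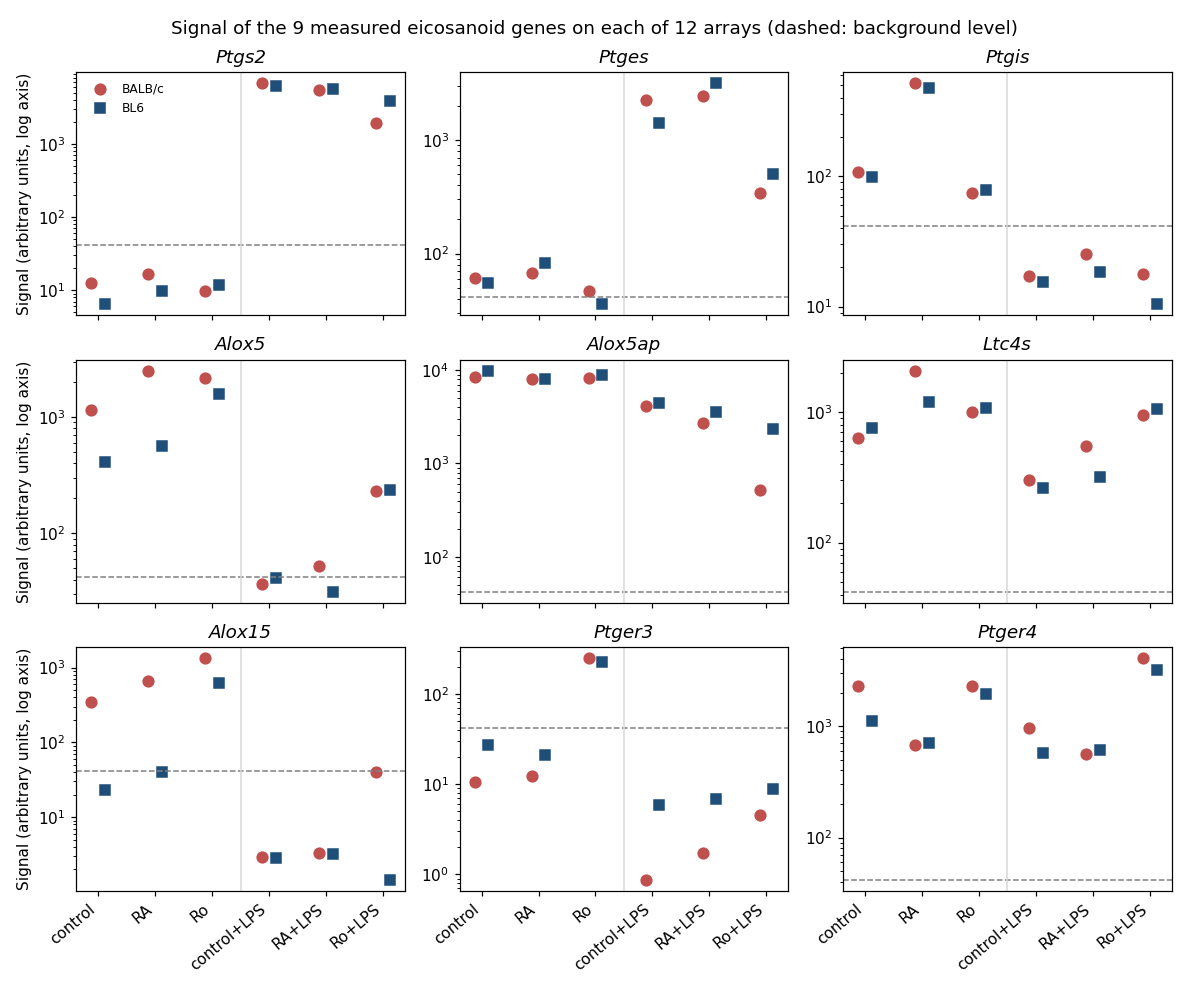
Signal of each measured gene on the 12 arrays (y axis: arbitrary signal units on a log axis; x axis: condition; circles: BALB/c; squares: BL6; dashed line: background level of 41.8; 1 probe set per gene). Ptgs2 and Ptges are high on the 6 arrays with LPS, Ptgis is highest on the 2 RA arrays without LPS (523 and 476), and Ptger3 is above background on the 2 Ro arrays without LPS only.

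The first question was how LPS moved these genes, with 6 arrays against 6. Ptgs2, the inducible cyclooxygenase, and Ptges, the inducible prostaglandin E2 synthase, rose, while Ptgis and the genes of the lipoxygenase branch fell. Changes are on the log2(signal + 16) scale and relative to the median change of all tested genes (-0.41 for LPS) and each is followed by ± its standard error in the fitted model. "Rose" and "fell" stand for an adjusted p under 0.05 in limma. All p-values and calls belong to the change before the median is subtracted, and not to the relative change printed beside them. Of the 9 genes 8 passed (58.9% of all tested genes did): 2 rose (11.0%) and 6 fell (47.9%). Under quantile normalization 2 rose (24.3% of all genes) and 5 fell (29.0%), Ltc4s being the gene lost. The members' median size of change was 2.02, beside 0.50 over all tested genes.

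Ptgs2 lay at background on every array without LPS. In control cultures its signals were 12.7 (BALB/c) and 6.41 (BL6), and with LPS 6833 and 6202. In RA cultures they went from 16.6 and 9.74 to 5529 and 5612. In Ro cultures they went from 9.64 and 11.8 to 1951 and 3863. The groups did not overlap, as was the case in this direction for 2.99% of all tested genes, and Ptgs2 rose by 7.84 ± 0.24 (at least 148-fold above background, adjusted p = 3.0e-09). A second Ptgs2 probe set gave 7.33 ± 0.40 when each probe set was tested on its own. Both passed the filter only through the arrays with LPS. The signals therefore describe the rise of Ptgs2, and its p-value does not count as support.

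Ptges encodes the synthase that works with Ptgs2 in inflamed tissue. Its signals in control cultures were 60.7 (BALB/c) and 54.5 (BL6) without LPS and 2273 and 1408 with LPS. RA cultures had 67.4 and 83.4 without and 2461 and 3187 with LPS. Ro cultures had 46.5 and 35.7 without and 345 and 507 with LPS. All 6 LPS arrays lay above all 6 others, and Ptges rose by 4.58 ± 0.30 (23.9-fold, adjusted p = 7.9e-07). The other 2 Ptges probe sets gave 3.51 ± 0.43 and 3.53 ± 0.35. Both passed the filter only through their arrays with LPS, so these 2 values do not count as support. The 3 probe sets correlated over the 12 arrays with r between 0.96 and 0.97, a description dominated by the LPS difference.

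Ptgis, the prostacyclin synthase gene, moved the other way. It measured 108 (BALB/c) and 98.6 (BL6) in control cultures, 523 and 476 with RA, and 74.9 and 78.8 with Ro. With LPS every array was at background: 17.2 and 15.5 in control cultures, 25.4 and 18.3 with RA, and 17.7 and 10.4 with Ro. The groups did not overlap (19.3% of all genes did not, in this direction), and Ptgis fell by 2.02 ± 0.31 on the log2 scale (at least 2.84-fold, adjusted p = 3.7e-05). With LPS too few Ptgis arrays exceeded their median to pass the filter. The signals therefore describe the fall of Ptgis, and its p-value does not count as support.

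Alox5, the 5-lipoxygenase gene, had the largest fall of the leukotriene genes. Its signals without LPS were 1161 (BALB/c) and 408 (BL6) in control cultures, 2507 and 560 with RA and 2190 and 1567 with Ro. With LPS they were 36.7 and 41.1, 52.5 and 31.3, and 230 and 237. The groups did not overlap, and Alox5 fell 9.54-fold (a log2 change of -3.25 ± 0.31, adjusted p = 2.3e-06). In bulk cultures, fewer cells that express a gene and less RNA per cell cannot be told apart. Granulocyte markers moved the same way: all 9 tested markers fell, and their summed signal was 11454 to 52502 without LPS and 404 to 5220 with it. Their part in the falls of the lipoxygenase genes was not tested.

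Alox5ap, whose product presents arachidonic acid to 5-lipoxygenase, stayed well above background on all 12 arrays. Control cultures had 8417 (BALB/c) and 9889 (BL6) without LPS and 4107 and 4450 with it. RA cultures had 8080 and 8110, and 2694 and 3525 with LPS. Ro cultures had 8338 and 8906, and 515 and 2368 with LPS. The spread was small without LPS and wide with Ro and LPS, where the BALB/c array was far below the BL6 array. Alox5ap fell 2.63-fold (a log2 change of -1.39 ± 0.33, adjusted p = 5.0e-04).

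Ltc4s, the leukotriene C4 synthase gene, changed least in this branch. It measured 627 (BALB/c) and 749 (BL6) in control cultures and 303 and 260 with LPS. RA cultures had 2066 and 1195 without and 544 and 320 with LPS. Ro cultures had 1004 and 1072 without LPS and kept 945 and 1057 with it. The LPS groups overlapped, and the change of -0.64 ± 0.27 (adjusted p = 0.00492) had the same direction in 4 of 6 pairs of arrays. The call was lost with quantile-normalized signals (adjusted p = 0.06) and with arrays scaled to a common median (0.125).

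Alox15, the 12/15-lipoxygenase gene, showed the widest spread between the strains. Without LPS the BALB/c and BL6 signals were 343 and 22.8 in control cultures, 668 and 39.7 with RA, and 1324 and 629 with Ro. With LPS all arrays were under background: 2.91 and 2.84, 3.34 and 3.20, and 39.6 and 1.45. Alox15 fell by 3.22 ± 0.51 on the log2 scale (at least 4.24-fold, adjusted p = 7.6e-05), lower in all 6 pairs of arrays although the groups overlapped. Alox15 too passed the filter through its arrays without LPS, so this p-value does not count as support. All 3 tested eosinophil markers fell with LPS (summed signal of 5 markers 395 to 1861 without and 20.4 to 311 with it), as did 6 of 10 macrophage markers, while 1 of these rose (35717 to 61498 without and 4381 to 45737 with LPS). Their part in the Alox15 result was not tested.

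The E2 receptor genes differed from each other. Ptger4 encodes a receptor that raises cyclic AMP, and its change with LPS was 0.22 ± 0.27. Before the median was subtracted this change was -0.19 (adjusted p = 0.562 in limma). Ptger3 encodes a receptor that mostly lowers cyclic AMP. It was above background on the Ro arrays without LPS alone, with 246 (BALB/c) and 222 (BL6). All other arrays had between 0.87 and 26.9, and a second Ptger3 probe set had at most 11.3 on any array. The averaged LPS change of Ptger3 (-1.24 ± 0.40) thus rests on the Ro cultures, through which it entered the fit, and does not count as support.

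**Figure D2:**
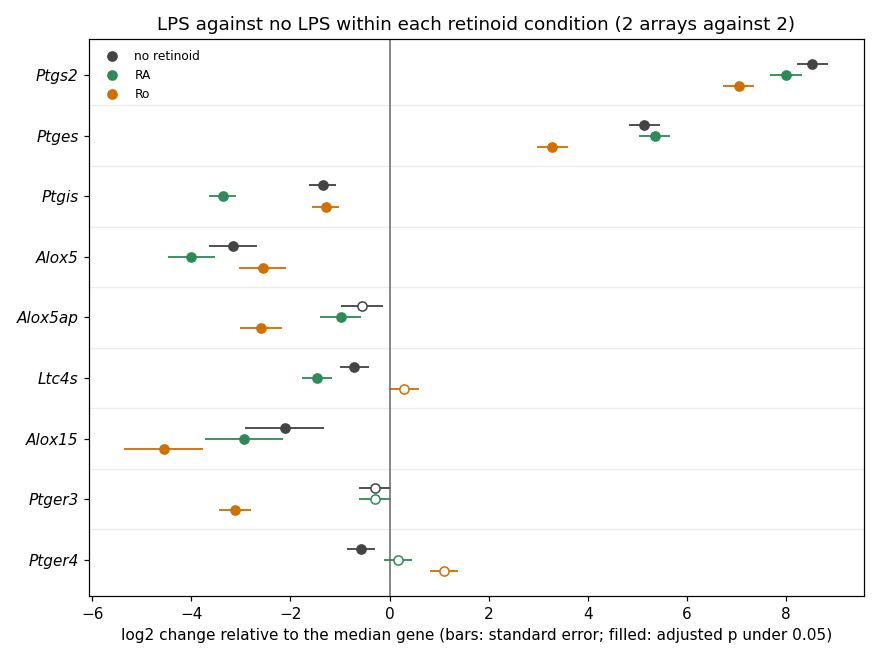
Change with LPS in cultures without retinoid, with RA and with Ro (x axis: log2 change relative to the median gene; points: model estimates from 2 arrays against 2; bars: standard error; filled points: adjusted p under 0.05). Ptgs2 changes by 8.53, 7.99 and 7.04 and Ptges by 5.14, 5.35 and 3.28 in the order control, RA, Ro.

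Within single retinoid conditions (2 arrays against 2), 7 of 9 genes passed with LPS in control cultures (45.8% of all tested genes), 7 with RA (35.2%) and 7 with Ro (30.0%). Each time 2 rose, beside 8.05%, 6.55% and 6.00% of all genes, and 5 fell, beside 37.7%, 28.6% and 24.0%. Under quantile normalization 16.3%, 12.5% and 12.2% of all genes rose and 22.1%, 16.9% and 15.5% fell. Ptgs2, Ptges, Ptgis and Alox5 passed in all 3 conditions and did so under every alternative run. For Ptgs2 this does not count as support, because it entered the fit only through its arrays with LPS. Nor do the LPS calls of Ptgis and Alox15, which entered the fit only through their arrays without LPS. Ptgis fell by 3.37 ± 0.27 on the log2 scale with RA, where its level without LPS was highest, and by 1.35 ± 0.27 in control cultures. The difference of -2.01 ± 0.38 did not pass as an interaction (adjusted p = 0.491). Alox15 fell in control cultures by 2.12 ± 0.79 on the log2 scale. That call was lost without the BALB/c control array (-1.23, adjusted p = 0.187) or without the BALB/c array with LPS (-1.11, adjusted p = 0.182), and with 64 added (adjusted p = 0.0611). With RA it was lost without the BALB/c arrays without LPS (-1.84, adjusted p = 0.121) and with LPS (-2.07, adjusted p = 0.0994). Without single BL6 arrays the Alox15 changes were larger (to -3.11 in control cultures and -4.02 with RA). Without strain in the model neither Alox15 call held (adjusted p = 0.105 and 0.0648).

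Alox5ap fell with RA (-0.99 ± 0.42, adjusted p = 0.0255) and with Ro (-2.60 ± 0.42, adjusted p = 5.8e-04), and had -0.56 ± 0.42 in control cultures (adjusted p = 0.0524), which passed under 7 alternatives, quantile normalization among them (adjusted p down to 5.0e-04). With Ro the size was -1.76 without the BALB/c array with Ro and LPS and -3.41 without the BL6 one. The call with RA was lost without the BALB/c RA array (-0.80, adjusted p = 0.199) and without the RA and LPS arrays of BALB/c (-1.14, adjusted p = 0.0971) or BL6 (-0.83, adjusted p = 0.0914), and without strain in the model (adjusted p = 0.0748). Ltc4s fell with RA by 1.47 ± 0.30 on the log2 scale and in control cultures by 0.71 ± 0.30, and had 0.29 ± 0.30 with Ro (adjusted p = 0.919). In control cultures the Ltc4s call was lost without the BL6 control array (-0.35, adjusted p = 0.0684) and under both rescalings (quantile, -0.64, adjusted p = 0.0816; common median, -0.63, adjusted p = 0.174). Ptger4 had -0.57 ± 0.28 in control cultures (adjusted p = 0.00874), where the call was lost without the BALB/c control array (-0.25, adjusted p = 0.139), without the BL6 array with LPS (-0.38, adjusted p = 0.086) and under both rescalings (quantile, -0.71, adjusted p = 0.0607; common median, -0.46, adjusted p = 0.311). With Ro, Ptger4 had 1.10 ± 0.28 (0.75 before the median was subtracted, adjusted p = 0.0629 in limma) and passed as higher under both rescalings.

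Ro was then compared with no retinoid in each LPS state. With LPS, Ro cultures had less Ptgs2, Ptges and Alox5ap and more Alox5, Ltc4s and Ptger4 than control cultures. These were 6 of 9 genes (21.6% of all tested genes passed), 3 higher (16% of all) and 3 lower (5.59%), and the same 6 passed under quantile normalization (11.2% and 9.04% of all genes). The count was 3 without the BALB/c array with LPS and no retinoid. The median size of the members' changes was 1.53, beside 0.44 over all genes.

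**Figure D3:**
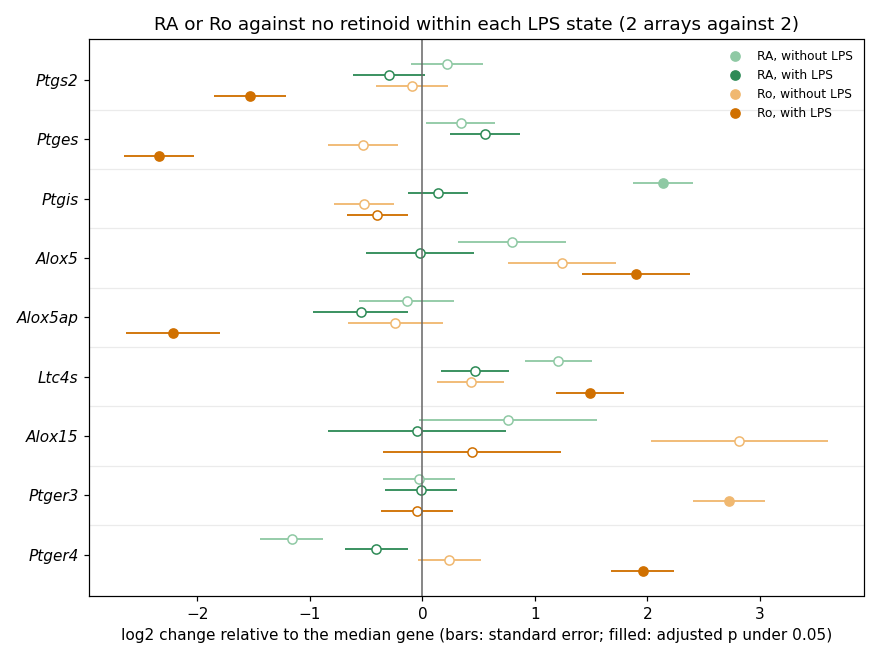
Change with RA or Ro against no retinoid, without and with LPS (x axis: log2 change relative to the median gene; points: model estimates from 2 arrays against 2; bars: standard error; filled points: adjusted p under 0.05). With Ro and LPS, Ptges (-2.34), Alox5ap (-2.22) and Ptgs2 (-1.53) lie left of 0 and Ptger4 (1.96), Alox5 (1.90) and Ltc4s (1.49) right of it.

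Ptges fell 5.07-fold with Ro and LPS (a log2 change of -2.34 ± 0.31, adjusted p = 0.00186), to 345 (BALB/c) and 507 (BL6) from 2273 and 1408. This call held under every alternative, and the other 2 Ptges probe sets had -2.34 ± 0.49 and -2.04 ± 0.44. Ptgs2 fell 2.88-fold (a log2 change of -1.53 ± 0.32, adjusted p = 0.0216). Its second probe set gave a larger value of -3.32 ± 0.43, with signals of 1256 (BALB/c) and 676 (BL6) against 8348 and 7089. The Ptgs2 call was lost without the array with LPS and no retinoid of BALB/c (-1.45, adjusted p = 0.109) or BL6 (-1.61, adjusted p = 0.0913) and without the BALB/c array with Ro and LPS (-1.15, adjusted p = 0.153). It was also lost without strain in the model (adjusted p = 0.0561) and with 1 added in place of 16 (adjusted p = 0.0527). As interactions, the LPS responses of Ptges (-1.83 ± 0.44, adjusted p = 0.11) and Ptgs2 (-1.46 ± 0.46, adjusted p = 0.215) were not shown to differ between Ro and control cultures.

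Alox5ap fell 4.65-fold with Ro and LPS (a log2 change of -2.22 ± 0.42, adjusted p = 0.00975), a call lost without the BALB/c array with LPS and no retinoid (-2.02, adjusted p = 0.0681). The size rested on the Ro and LPS arrays: it was -1.40 without the BALB/c one (adjusted p = 0.0159) and -3.05 without the BL6 one (adjusted p = 1.7e-04). Macrophage markers were lowest on the same arrays: the summed signal of 10 markers was 4381 (BALB/c) and 9872 (BL6) with Ro and LPS, against 27290 and 35970 with LPS alone. Averaged over LPS, 5 of these 10 markers fell with Ro and none rose, and Csf1r had 819 and 2367 on the Ro and LPS arrays but 6924 and 6057 with LPS alone. Dendritic cell markers had summed signals of 45031 and 44548 with Ro and LPS and 37790 and 34590 with LPS alone. The part of these cell type markers in the changes of Ptges, Ptgs2 and Alox5ap was not tested.

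Alox5 was 230 (BALB/c) and 237 (BL6) with Ro and LPS, where LPS alone left it at background (36.7 and 41.1). It was higher by 1.90 ± 0.48 (at least 4.58-fold, adjusted p = 0.0104). That call was lost without the BALB/c array with LPS alone (1.35, adjusted p = 0.0834), without the BL6 array with Ro and LPS (1.60, adjusted p = 0.109) and without strain in the model (adjusted p = 0.0616). Ltc4s rose by 1.49 ± 0.30 (2.81-fold, adjusted p = 0.00289), a call that held under every alternative. Granulocyte markers summed to 404 (BALB/c) and 2241 (BL6) with Ro and LPS and to 2318 and 1400 with LPS alone, lower with Ro in BALB/c and higher in BL6. Their part in the Alox5 and Ltc4s results was not tested.

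Ptger4 reached its highest levels of the study with Ro and LPS, 4042 (BALB/c) and 3184 (BL6), against 961 and 570 with LPS alone. It rose by 1.96 ± 0.28 (3.90-fold, adjusted p = 8.3e-04) under every alternative, and its second probe set gave 1.99 ± 0.29. In the order of condition means, RA with LPS, RA and control with LPS lay lowest, then control, Ro, and Ro with LPS. The neighbours RA with LPS and RA (0.17 ± 0.28, adjusted p = 0.549) and control and Ro (0.24 ± 0.28, adjusted p = 0.494) were not told apart, nor were Ro and Ro with LPS (1.10 ± 0.28, adjusted p = 0.0629). Control with LPS lay below control (-0.57 ± 0.28, adjusted p = 0.00874, a call lost under the settings given above). The neighbours RA without LPS and control with LPS were not tested against each other. The change of the LPS response by Ro was 1.70 ± 0.39 for Ptger4 (adjusted p = 0.0642).

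Without LPS, Ptger3 alone of the 9 genes passed with Ro (2.69% of all tested genes did, 1.48% as higher; under quantile normalization 1.56% of all genes were higher and 2.33% lower). It rose by 2.73 ± 0.32 (at least 5.0-fold, adjusted p = 0.00168), from 10.6 and 26.9 to 246 and 222, and this held in every fit that could test it. Ptger3 was also the 1 member whose LPS response differed with Ro as an interaction (-2.80 ± 0.45, adjusted p = 0.0317, 0.644% of all genes called, 0.386% in this direction), but leaving out any of 10 arrays ended that call (adjusted p from 0.0526 to 0.141). Since Ptger3 entered the fit through its 2 Ro arrays, neither call counts as support, nor does any other Ptger3 call that uses these arrays. The summed signal of the 10 mast cell and basophil markers was 616 (BALB/c) and 3103 (BL6) on the Ro arrays without LPS and 499 and 462 on the control arrays. That of the 5 eosinophil markers was 395 and 1861 with Ro and 755 and 966 in control cultures, with Prg2 at 128 and 1427 against 12.7 and 209 and Siglecf at 228 and 287 against 726 and 722. The part of these cells in the Ptger3 result was not tested. Alox15 had 2.82 ± 0.79 with Ro (7.05-fold, adjusted p = 0.0788) and Alox5 1.24 ± 0.48 (adjusted p = 0.159), both higher in both strains and neither past the threshold.

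Averaged over both LPS states (4 arrays against 4), 5 of 9 genes passed with Ro (18.5% of all tested genes), 4 higher (14.1%) and 1 lower (4.36%). Under quantile normalization 7.60% of all genes were higher and 6.60% lower, and 2 members were higher and 1 lower. Alox5 (1.57 ± 0.39, adjusted p = 0.0108) kept its call under every alternative. Ptger4 (1.10 ± 0.32), Ltc4s (0.96 ± 0.33), Ptger3 (1.33 ± 0.49) and Ptges (-1.44 ± 0.37) each lost theirs when single arrays were left out (adjusted p up to 0.0734, 0.107, 0.119 and 0.142). The Ptger3 call again does not count as support. The other 2 Ptges probe sets did not pass (adjusted p = 0.074 and 0.0703), while the second Ptgs2 probe set did (-1.91 ± 0.49, adjusted p = 0.0371), though the first did not (-0.80 ± 0.29, adjusted p = 0.174). The count was 1 without the BALB/c array with LPS and no retinoid, and 2 without the BALB/c control array, either array with Ro and LPS or the BL6 array with LPS and no retinoid. It was 3 without the RA and LPS array of BALB/c or the BL6 control array.

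RA gave fewer differences. Without LPS, Ptgis rose by 2.14 ± 0.27 (4.42-fold, adjusted p = 0.0141), to 523 and 476 from 108 and 98.6, and it was the 1 member called, beside 0.145% of all genes (0.0322% as higher). The call was lost without either control array (adjusted p = 0.141 for BALB/c and 0.139 for BL6) or either RA array (0.167 and 0.0805), with changes between 2.00 and 2.29. It was also lost without strain in the model (adjusted p = 0.0603), with 1 added (0.0735) and with no filter (0.0528). With LPS, Ptgis had 0.14 ± 0.27 and all arrays were at background. Stromal cells, which make prostacyclin in many tissues, were represented by 7 markers, whose summed signal was 207 and 89.5 on the RA arrays and 124 and 91.7 on the control arrays without LPS. Of these 7, Col1a2 (5 arrays), Dcn (7), Lum (3) and Pdgfrb (2) were above background on 2 or more of the 12 arrays, and Col1a1, Col3a1 and Pdgfra on at most 1. On the BALB/c arrays Col1a2 was 75.5 with RA and 35.3 in control culture, and on the BL6 arrays 35.1 and 29.4. The part of stromal cells in the Ptgis result was not tested.

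Other values with RA and no LPS missed the threshold: Ltc4s at 1.21 ± 0.30 (adjusted p = 0.179), with 2066 and 1195 against 627 and 749, and Ptger4 at -1.16 ± 0.28 (adjusted p = 0.14), with 680 and 702 against 2283 and 1119. In both, the RA and control signals did not overlap, but the share of all genes with this trait was not taken. With so few arrays it is a weak description and not support. With LPS, none of the 9 genes passed for RA in limma, nor had any an unadjusted p under 0.05 (1146 of all genes did). Averaged over LPS, no gene passed, and 3 members had an unadjusted p under 0.05, beside 1024 of all 12429 genes. No LPS response was shown to differ with RA (0 genes of 12429, 707 at an unadjusted p under 0.05).

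RA and Ro, an agonist and an antagonist of retinoic acid receptors, were also set against each other (4 arrays against 4). Ptger4 was lower with RA in all 4 pairs of arrays (-1.88 ± 0.32, adjusted p = 0.00114), and Ptges was higher in all 4 (1.90 ± 0.37, adjusted p = 0.00874). Both calls held under every alternative. Ptgis was higher with RA (1.61 ± 0.38, adjusted p = 0.0221), a call lost without any of the 4 RA or Ro arrays that had no LPS (adjusted p up to 0.0838). Alox5 (-1.17 ± 0.39, adjusted p = 0.026) and Ptger3 (-1.35 ± 0.49, adjusted p = 0.044) were lower, and both calls depended on single arrays (adjusted p up to 0.0991 and 0.132). The Ptger3 call does not count as support, because Ptger3 entered the fit through its Ro arrays. These 5 of 9 genes stand beside 19.8% of all genes, 5.36% higher and 14.4% lower (8.51% and 8.89% under quantile normalization, where Ptger3 was not called). The count was 2 without the BL6 RA array, and 3 without the BALB/c RA array, either Ro array without LPS or the RA and LPS array of BALB/c.

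Between the strains, no member passed in limma (15.3% of all tested genes did, under quantile normalization 7.27% as higher in BALB/c and 8.13% as lower). An unadjusted p under 0.05 was found for 2 members, beside 3857 of all 12429 genes. Alox15 had 1.45 ± 0.51 (adjusted p = 0.0523), with the BALB/c array higher in each of the 3 conditions without LPS. It passed in 7 of the alternatives, with an adjusted p as low as 0.0225. The second Ptger4 probe set, tested on its own, had 0.78 ± 0.26 (adjusted p = 0.0249), and the first 0.20 ± 0.26 (adjusted p = 0.374). Alox5 had 0.60 ± 0.31 (adjusted p = 0.13). The LPS response of no member was shown to differ between the strains (0.113% of all genes called), the largest difference being -1.82 ± 0.86 for Alox15 (adjusted p = 0.41).

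Of a list of 51 other genes of the pathway, 46 were on the array and 35 were tested. With LPS 3 of the 35 rose (11.0% of all tested genes did) and 16 fell (47.9%), and under quantile normalization 6 rose (24.3% of all genes) and 12 fell (29.0%). The median change over the 35 genes was 0.04 relative to the median gene. Pla2g6 was counted as falling with a relative change of -0.05 ± 0.16, because its change before the median was subtracted was -0.46. Tbxas1, the thromboxane synthase gene, fell by 2.29 ± 0.18 on the log2 scale (4.87-fold) and Lta4h, whose product makes leukotriene B4, by 1.61 ± 0.19 (3.05-fold). Signals of Lta4h were 1390 to 3978 without LPS and 350 to 950 with it. Receptor genes for leukotrienes fell too, Ltb4r1 by 2.09 ± 0.30 and Cysltr1 by 2.02 ± 0.26, whereas Cysltr2 rose by 1.44 ± 0.22 from background. Hpgds, a prostaglandin D2 synthase gene, fell by 1.96 ± 0.23 on the log2 scale and Mgst2 by 1.43 ± 0.35. Fpr2, a receptor of formyl peptides that also binds lipoxin A4, rose by 2.03 ± 0.33 (4.09-fold) and Abcc1, an exporter of leukotriene C4, by 0.97 ± 0.13. Pla2g4a, the phospholipase that releases arachidonic acid, had 0.91 ± 0.28 (0.49 before the median was subtracted, adjusted p = 0.15 in limma). It passed as higher under quantile normalization. The E2 receptor gene Ptger2 fell 1.85-fold (-0.89 ± 0.45, adjusted p = 0.0257) but did not pass under quantile normalization. Hpgd, which degrades prostaglandins, was at background on every array (at most 17.9) and was not tested.

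**Figure D4:**
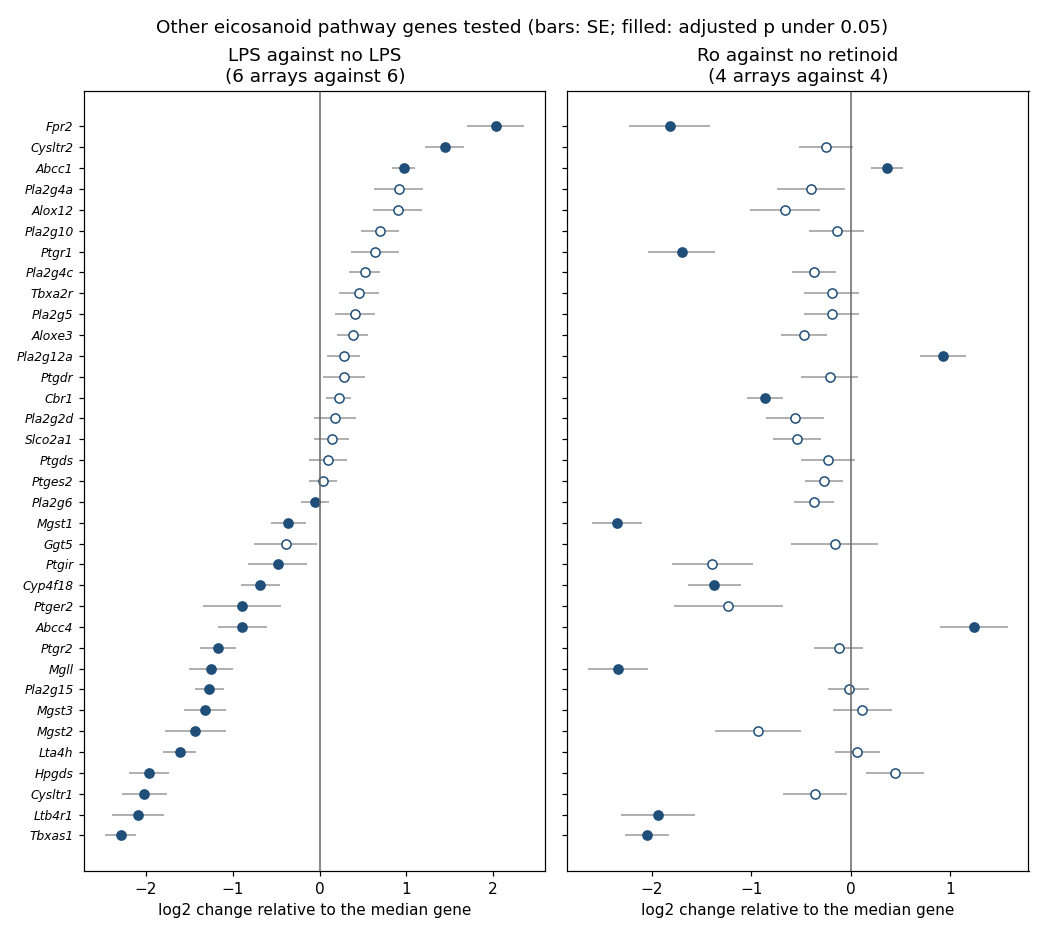
The 35 other pathway genes tested, with LPS (left) and with Ro (right), ordered by the LPS change (x axes: log2 change relative to the median gene; points: model estimates; bars: standard error; filled points: adjusted p under 0.05). Tbxas1 and Ltb4r1 lie at the low end with LPS (-2.29 and -2.09) and are also low with Ro (-2.05 and -1.94).

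With Ro, averaged over LPS, 3 of these 35 genes rose (14.1% of all tested genes did) and 8 fell (4.36%). Under quantile normalization 2 rose (7.60% of all genes) and 9 fell (6.60%), and Abcc1 was not called. Mgst1, a microsomal glutathione transferase gene, fell by 2.35 ± 0.25 on the log2 scale (5.08-fold), and Mgll, which frees arachidonic acid from a monoglyceride, 5.07-fold (-2.34 ± 0.30). Tbxas1 fell by 2.05 ± 0.22 on the log2 scale, to 121 and 132 with Ro and LPS from 696 and 626 with LPS alone. Ltb4r1 fell by 1.94 ± 0.37, Fpr2 by 1.82 ± 0.41 and Ptgr1, an enzyme that inactivates leukotriene B4 and prostaglandins, by 1.70 ± 0.34. Abcc4, an exporter of prostaglandins, rose by 1.24 ± 0.34 (2.36-fold), Pla2g12a by 0.93 ± 0.23 and Abcc1 by 0.37 ± 0.16. Lta4h (0.07 ± 0.23), Hpgds (0.45 ± 0.29), Pla2g4a (-0.40 ± 0.34) and Ptger2 (-1.23 ± 0.55) did not pass on average. Without LPS, Ptger2 fell 6.21-fold with Ro (-2.64 ± 0.51, adjusted p = 0.0297), to 78.3 (BALB/c) and 62.5 (BL6) from 448 and 477, and Hpgds rose 2.31-fold (1.21 ± 0.31, adjusted p = 0.0438), to 236 and 386 from 77.5 and 147. Under quantile normalization Ptger2 kept its call and Hpgds did not. With LPS they had 0.18 ± 0.51 (adjusted p = 0.55) and -0.30 ± 0.31 (adjusted p = 0.982). The macrophage markers given above moved with Ro as well, and their part in these falls was not tested.

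Over the 12 arrays, the genes most like each member by Pearson's r, among 10202 tested genes above background, were Hamp and Car13 for Ptgs2 (both r = 0.990), Slc1a2 (0.981) and Sod2 (0.978) for Ptges, and Susd1 (0.968) and Cd28 (0.955) for Ptgis. Alox5 was most like Smc1a and Smc2 (both 0.986), Alox5ap like Clec4n (0.976) and Gm2a (0.964), Alox15 like Cenpi (0.987) and Paxip1 (0.981), and Ltc4s like Flot1 (0.935) and Gnpda1 (0.928). For Ptger3 they were Bex6 (0.951) and Ctnnd2 (0.936) and for Ptger4 Csnk1g1 and Mtmr12 (both 0.961). These values are descriptions over arrays that fall into LPS groups.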

How the data were processed

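RNA from 12 cultures was measured on 12 single-colour Affymetrix arrays. The table deposited by the authors gives linear intensities per probe set (0.0195 to 17488). The submitters' processing notes name MAS5, whose version is not given in the sources used here. The table held no negative value or 0, and the array medians differed by 1.96-fold. Genes were named through the platform annotation.

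Values were analysed as log2(signal + 16). A probe set was kept if above its array's median on at least 2 arrays, and the kept probe set of highest mean stood for its gene (12429 genes). Fits used limma (3.58.1; lmFit, eBayes with intensity trend) under R 4.3.3, with p-values adjusted by Benjamini and Hochberg over all genes. For averaged comparisons the terms were strain, LPS and retinoid, without interactions; for the others they were strain and 6 conditions. Strain was a block because each replicate number is 1 strain; strain differences of the conditions correlated across genes with r from 0.304 to 0.699 over 15 pairs. Strain cannot be told apart from any batch shared by a replicate number. Folds and printed changes are relative to the median gene, while p-values test the change before that median is subtracted. Folds were not given where a group lay at background. There a lower bound used 41.8 or the array's own signal, whichever was higher, for the dim group. Tested on simulated data for these 12429 genes, the LPS fit recovered 73% of changes of 1 log2 unit and 99% of changes of 3, the fit of RA without LPS 14% and 93%, and the interaction with Ro 4% and 75%.

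The members, the pathway and marker lists and the tests were chosen with earlier results of these data known. The text names every member, fixed pathway genes, and pathway genes with the largest changes past the threshold. Alternatives covered scaling, the added constant, the filter, probe sets, the block, the trend and left-out arrays. Python 3.11.15 with matplotlib 3.10.9 drew the figures.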

Additional observations from a re-analysis of the deposited data

Results flagged for a closer look

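Single arrays were checked in 45 groups of 4 or 6 arrays (by LPS or by retinoid) over the 9 genes. These groups share arrays, and how often the rule flags an array by chance was not tested. In 2 groups an array was flagged, both times the BALB/c array with Ro and LPS. For Alox5ap it was the lowest of the 6 arrays with LPS (515, next lowest 2368), with a gap of 0.705 of the group's range. For Alox15 it was the highest of them (39.6, next highest 3.34), with a gap of 0.911, although it was itself at background. Without this array the change of Alox5ap with Ro and LPS was -1.40 on the log2 scale (adjusted p = 0.0159 in limma), against -2.22 with it.

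The LPS response of Ptger3 differed between Ro and control cultures by -2.80 on the log2 scale. It was at background in every condition but Ro without LPS.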

How the results depend on the processing

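Of 48 calls on members, 30 held under every alternative and 18 were lost under at least 1. None reversed, and 15 other results passed under some alternative. The 30 include LPS calls of Ptgs2, Ptgis and Alox15 and calls of Ptger3, which do not count as support because of the filter. The number of members past the threshold for Ro averaged over LPS was 5, and 3 under quantile normalization, with 64 added, without the filter or without the intensity trend. Without the replicate block it was 2. For RA against Ro it fell from 5 to 3 without the replicate block. For the strains it was 0, and 1 with 1 added, with a filter of 6 arrays or with each probe set on its own. For RA without LPS it was 1, and 0 with 1 added, without the filter or without the replicate block, but 4 with the arrays of the comparison alone. For Ro without LPS it was 1, 0 with the filter of 6 arrays, which removed Ptger3, and 3 with the comparison's arrays alone. For the interaction with Ro it was 1, and 3 with arrays scaled to a common median and 0 with 1 added, the filter of 6 arrays or no replicate block. The cause was not tested beyond the removal of Ptger3.

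Leaving out 1 array in turn gave counts of 8 to 8 for LPS averaged, 1 to 6 for Ro averaged, 2 to 5 for RA against Ro, 0 to 1 for the strains, 5 to 8 for LPS without retinoid, 5 to 7 with RA and 7 to 8 with Ro, 0 to 1 for RA without LPS, 1 to 1 for Ro without LPS, 3 to 6 for Ro with LPS and 0 to 2 for the interaction with Ro. A condition left with 1 array was assumed to vary like the others. Detection calls were not used here, so signal near background is limited only by the array medians.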
